A study of Rattus norvegicus with 12 samples.

Results

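Circadian clock genes were examined across the liver groups. The 7 members, of 34194 gene IDs with deposited values, were given by Ensembl rat gene ID: Arntl (ENSRNOG00000014448), Clock (ENSRNOG00000002175), Per1 (ENSRNOG00000007387), Per2 (ENSRNOG00000020254), Nr1d1 (ENSRNOG00000009329), Nr1d2 (ENSRNOG00000046912) and Dbp (ENSRNOG00000021027). All 7 IDs were present, had an FPKM above 0 in each of the 12 libraries, and reached a mean FPKM of 1, the limit for entering the test. FPKM scales the fragments of a gene by its transcript length and by the mapped total of the library. It does not correct for differences in composition between libraries, so levels are also given after median-of-ratios scaling.

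The RNA came from livers of male Wistar rats at week 20, with 3 libraries in each of 4 groups. All animals were injected intraperitoneally 2 times a week from week 2 to week 9. Control rats received saline and drank water. NDEA rats received 25 mg/kg of N-nitrosodiethylamine, a liver carcinogen, and drank water. NDEA+CFT-1 and NDEA+FYT rats received the same carcinogen and drank a green tea infusion. It was brewed from CFT-1, a variety rich in EGCG, for the former and from common Fuyun6 tea for the latter. EGCG, epigallocatechin gallate, is the main catechin of green tea. The animals lived under alternating light and dark. The hour at which each liver was taken, and whether a piece of liver held tumor nodules, are not given in the sources used here. The methods call the 3 libraries of a group biological replicates without saying whether each came from a separate animal, and p-values measure the spread between these samples. In whole liver, fewer cells of a type and less RNA per cell cannot be told apart.

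The circadian clock is a feedback loop of transcription that runs in nearly every cell and gives liver genes a daily rhythm. The proteins of Arntl (also called Bmal1) and Clock form a heterodimer that binds E-boxes and activates Per1, Per2, Nr1d1, Nr1d2 and Dbp. The PER proteins inhibit that heterodimer, and the nuclear receptors REV-ERB alpha and beta, made from Nr1d1 and Nr1d2, repress Arntl through ROR elements (ROREs). Dbp encodes a transcription factor that binds D-boxes and drives rhythmic liver genes. In liver, Arntl RNA and the RNAs of Dbp and Nr1d1 are known to peak at opposite times of day, and Per1 also responds to glucocorticoids and feeding.

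The promoters are shown because these genes regulate one another through short elements. RefSeq windows on the GRCr8 build, from 250 bases before to 50 bases after a start site, were found for all 7 members (9 windows, since Nr1d1 and Clock have more than 1 start). The letters searched on both strands were CACGTG (E-box), CACGTT (E'-box), TAGGTCA (RORE core) and TTATGTAA or TTACGTAA (D-box). These letters were in windows of 3 members, Arntl, Per2 and Nr1d1, printed here 5′ to 3′ on the strand of the gene with the matched letters in capitals.
Arntl (chr1:176766078-176766377, plus strand): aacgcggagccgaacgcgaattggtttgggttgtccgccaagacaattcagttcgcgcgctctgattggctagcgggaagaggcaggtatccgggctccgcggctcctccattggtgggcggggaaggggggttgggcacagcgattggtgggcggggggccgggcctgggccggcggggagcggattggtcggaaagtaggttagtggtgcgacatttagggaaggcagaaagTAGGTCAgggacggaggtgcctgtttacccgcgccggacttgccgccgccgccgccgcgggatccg
Per2 (chr9:99496944-99497243, minus strand): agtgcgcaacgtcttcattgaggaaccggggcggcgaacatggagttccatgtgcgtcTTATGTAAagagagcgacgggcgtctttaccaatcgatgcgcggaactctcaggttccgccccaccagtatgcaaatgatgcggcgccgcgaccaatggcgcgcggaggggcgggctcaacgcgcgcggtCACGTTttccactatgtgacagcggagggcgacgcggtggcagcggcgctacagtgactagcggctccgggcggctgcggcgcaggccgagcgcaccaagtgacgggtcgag
Nr1d1, upstream start (chr10:84231763-84232062, minus strand): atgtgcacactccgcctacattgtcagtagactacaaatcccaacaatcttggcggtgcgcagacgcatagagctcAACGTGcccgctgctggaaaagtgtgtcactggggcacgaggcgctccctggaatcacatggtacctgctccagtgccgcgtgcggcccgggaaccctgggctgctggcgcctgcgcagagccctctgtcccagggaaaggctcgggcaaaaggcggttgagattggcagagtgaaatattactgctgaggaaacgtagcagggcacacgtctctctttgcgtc
Nr1d1, other start (chr10:84229405-84229704, minus strand): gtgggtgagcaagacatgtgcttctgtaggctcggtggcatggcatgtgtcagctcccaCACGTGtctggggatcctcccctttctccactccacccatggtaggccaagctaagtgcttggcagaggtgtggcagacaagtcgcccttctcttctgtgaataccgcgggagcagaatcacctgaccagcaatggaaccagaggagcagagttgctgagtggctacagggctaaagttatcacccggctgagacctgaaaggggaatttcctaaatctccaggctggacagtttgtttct
Arntl held the RORE core TAGGTCA, with 9 bases between it and the start site. Per2 held the D-box TTATGTAA, 184 bases from the start, and the E'-box CACGTT, 56 bases from the start. The upstream Nr1d1 window held the E'-box on the opposite strand (printed as AACGTG), 168 bases from its start, and the other Nr1d1 window held the E-box CACGTG, 185 bases from its start. Of all 33469 promoter windows of this length, 6.42% held the E-box, 4.83% the E'-box, 2.63% the RORE core and 1.01% the D-box. A match describes the letters in the window and is not evidence of binding.

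The libraries differed in depth by a factor of 1.66, and 17989 to 20385 genes per library had an FPKM above 0. In a fit that weights libraries by their agreement with their group, NDEA replicate 1, NDEA+CFT-1 replicate 2 and Control replicate 3 had the lowest weights (0.138, 0.234 and 0.358, against 0.735 to 2.62 in the others). Median-of-ratios scaling factors were 0.771 in Control replicate 3, 1.40 in NDEA replicate 1 and 0.819 in NDEA+CFT-1 replicate 2. Values with a library left out are given beside the larger differences and in the closing section, and the main correlations are given without NDEA replicate 1 and Control replicate 3.

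Arntl, the activator that defines the activating arm of the loop, was read at very different levels in livers of the same group. Its FPKM was 8.26, 8.59 and 0.204 in Control replicates 1, 2 and 3. In NDEA it was 2.04, 1.04 and 8.63. In NDEA+CFT-1 it was 2.12, 3.65 and 1.47, and in NDEA+FYT it was 5.84, 4.80 and 7.32. The lowest value and the value next to the highest were thus both from Control livers, and the highest, as deposited, was from an NDEA liver. The mean was 5.69 ± 4.75 (SD, n = 3) in Control, 3.90 ± 4.12 in NDEA, 2.41 ± 1.12 in NDEA+CFT-1 and 5.99 ± 1.27 in NDEA+FYT. Control replicate 3 rested on at least 15 fragments (exact Poisson 95% interval 8.40 to 24.7, counting error only), and the deepest Arntl value rested on at least 575.

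Clock, the partner of Arntl, had a far narrower range. Its FPKM was 8.28, 7.74 and 3.12 in Control and 5.80, 5.31 and 9.00 in NDEA. In NDEA+CFT-1 it was 6.66, 5.48 and 6.53, and in NDEA+FYT it was 7.31, 7.09 and 8.60. Control replicate 3 was again the lowest library and NDEA replicate 3 again the highest, but in NDEA+CFT-1 Clock was lowest in replicate 2, where Arntl was highest. Group means lay between 6.22 ± 0.650 in NDEA+CFT-1 and 7.66 ± 0.815 in NDEA+FYT (SD, n = 3).

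Among the PER repressors, Per1 was high in single livers. Its FPKM was 0.673, 6.15 and 4.77 in Control, 19.0, 6.52 and 6.15 in NDEA, and 2.78, 3.63 and 2.61 in NDEA+CFT-1. In NDEA+FYT it was 2.22, 1.44 and 13.8. The 3 NDEA livers were all above the 3 NDEA+CFT-1 livers, whereas the NDEA+FYT livers ranged across both. The highest Control value, 6.1495, and the lowest NDEA value, 6.1489, nearly tied. Means were 3.86 ± 2.85 in Control, 10.6 ± 7.32 in NDEA, 3.01 ± 0.544 in NDEA+CFT-1 and 5.82 ± 6.92 in NDEA+FYT (SD, n = 3).

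Per2 had its 2 highest values, as deposited, in NDEA livers. Its FPKM was 2.96, 3.98 and 7.17 in Control and 13.3, 7.82 and 4.52 in NDEA. In NDEA+CFT-1 it was 3.95, 1.31 and 4.51, and in NDEA+FYT it was 4.91, 4.46 and 4.42. The lowest NDEA value, 4.521, and the highest NDEA+CFT-1 value, 4.514, nearly touched. Means were 4.70 ± 2.20 in Control, 8.54 ± 4.42 in NDEA, 3.26 ± 1.71 in NDEA+CFT-1 and 4.60 ± 0.269 in NDEA+FYT (SD, n = 3).

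Nr1d1, which encodes the repressor REV-ERB alpha, ran largely opposite to Arntl over the livers. Its FPKM was 9.57, 2.83 and 22.9 in Control, 26.5, 42.1 and 6.53 in NDEA, and 24.6, 4.78 and 24.2 in NDEA+CFT-1. In NDEA+FYT it was 17.5, 13.6 and 2.19. Every group held a liver below 10 and a liver above 13, so all groups overlapped. Means were 11.8 ± 10.2 in Control, 25.0 ± 17.8 in NDEA, 17.9 ± 11.3 in NDEA+CFT-1 and 11.1 ± 7.94 in NDEA+FYT (SD, n = 3).

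Nr1d2, its paralog, followed Nr1d1 with smaller steps. Its FPKM was 11.5, 6.96 and 30.0 in Control, 22.1, 23.8 and 10.6 in NDEA, and 20.8, 9.02 and 23.9 in NDEA+CFT-1. In NDEA+FYT it was 15.0, 16.1 and 10.4. The 4 groups overlapped, and the lowest and highest livers were both Control. Means ran from 13.9 ± 3.02 in NDEA+FYT to 18.8 ± 7.16 in NDEA (SD, n = 3).

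Dbp, the output factor, had the highest mean of the 7 genes in each group and split the livers of each group. Its FPKM was 10.6, 11.6 and 229 in Control, 191, 200.3 and 9.55 in NDEA, and 123, 13.5 and 114 in NDEA+CFT-1. In NDEA+FYT it was 56.6, 65.8 and 11.5. No library lay between 13.5 and 56.6, a gap that took 44.8% of the whole range on the log2(FPKM + 1) scale, and 5 libraries lay below it and 7 above it. Libraries were treated as separate sets where such a gap, as deposited and on that log2 scale, passed 33.3% of the range with more than 1 library on each side, a rule chosen after seeing the values. Clock had a gap of 48.0% with 1 library below it and was not treated so. After median-of-ratios scaling the gaps were 32.3% for Dbp, 33.8% for Clock (2 libraries below) and 33.5% for Per2 (3 libraries above), so the rule would then set apart Clock and Per2 and not Dbp. Each group had libraries on both sides. Means were 83.9 ± 126 in Control, 134 ± 108 in NDEA, 83.7 ± 60.9 in NDEA+CFT-1 and 44.7 ± 29.1 in NDEA+FYT (SD, n = 3).

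**Figure D1:**
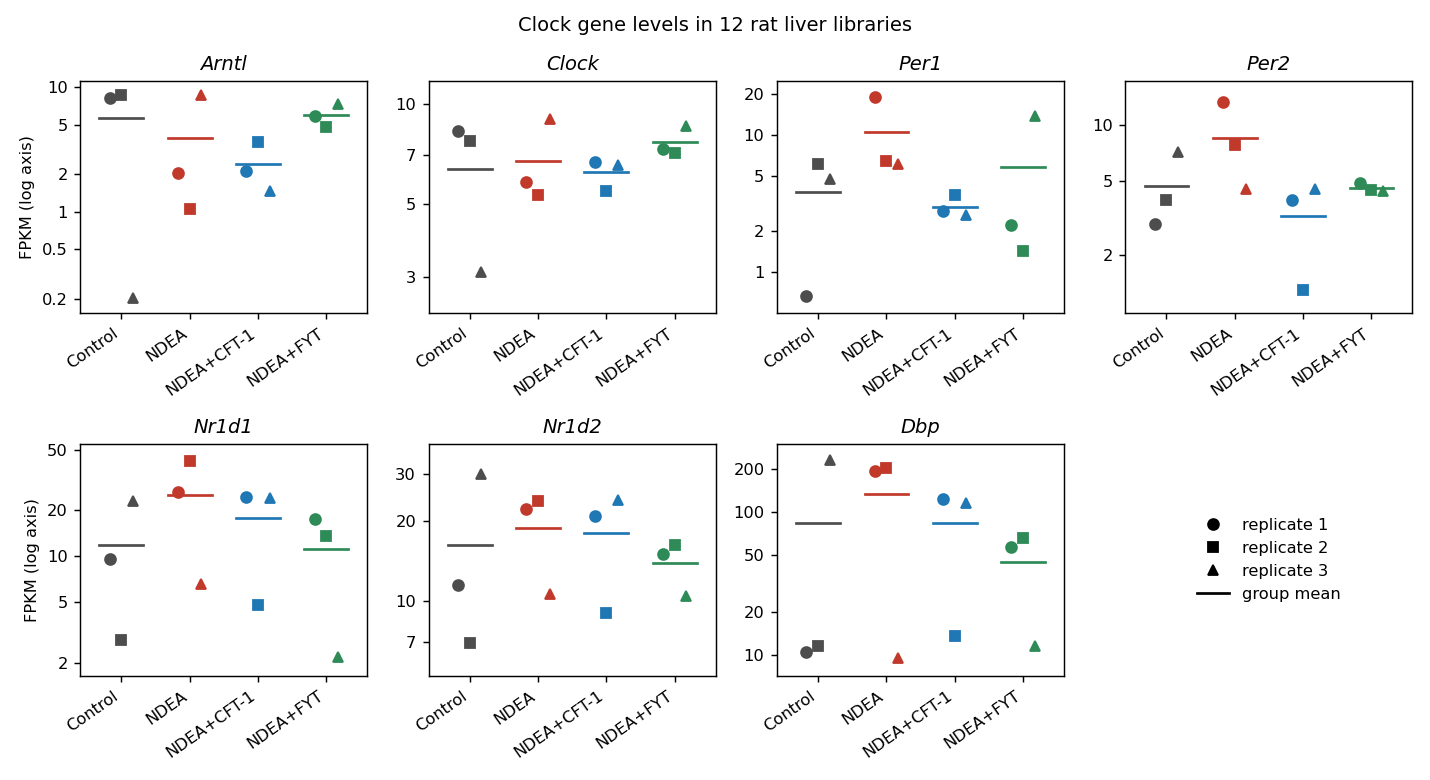
FPKM of each of the 7 clock genes (log axis, 1 panel per gene) in the 4 groups, with 1 point per library, its shape giving the replicate number, and a line at the group mean. Dbp in Control lies at 10.6 and 11.6 in 2 libraries and at 229 in replicate 3, and Arntl in the same libraries lies at 8.26, 8.59 and 0.204.

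The counting behind these levels was deep relative to the differences. The fewest fragments behind a single value were at least 551 for Clock, 62 for Per1, 160 for Per2, 124 for Nr1d1, 432 for Nr1d2 and 249 for Dbp. Counting error alone was then at most 12.7% for these 6 genes and 25.8% for Arntl. These figures are lower bounds on the fragments, recovered from the steps in which the deposited values move.

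The range over livers, which always contains the range over group means, was wide for most members. The highest library was 42.3 times the lowest for Arntl, 28.3 times for Per1, 24.0 times for Dbp and 19.2 times for Nr1d1. It was 10.2 times for Per2, 4.31 times for Nr1d2 and 2.88 times for Clock. The highest group mean, was 3.51 times the lowest for Per1, 2.995 times for Dbp, 2.62 times for Per2 and 2.48 times for Arntl, with 2.26 for Nr1d1, 1.36 for Nr1d2 and 1.23 for Clock. After median-of-ratios scaling, which aligns the median gene of each library, the ratio of highest to lowest library was 32.2 for Arntl, 31.7 for Dbp, 20.9 for Nr1d1, 19.8 for Per1, 5.93 for Per2, 5.64 for Nr1d2 and 2.18 for Clock.

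After scaling the low and high Dbp libraries of each group were the same. Dbp became 10.7, 11.5 and 297 in Control, 136, 205 and 9.38 in NDEA, 123, 16.5 and 118 in NDEA+CFT-1, and 50.7, 60.9 and 10.8 in NDEA+FYT. Arntl became 8.39, 8.51 and 0.265 in Control, 1.45, 1.06 and 8.47 in NDEA, 2.12, 4.46 and 1.51 in NDEA+CFT-1, and 5.22, 4.45 and 6.89 in NDEA+FYT. The lowest Arntl library was Control replicate 3 in either case, whereas the highest was NDEA replicate 3 as deposited and Control replicate 2 after scaling. Clock in NDEA+CFT-1 narrowed to 6.65, 6.69 and 6.71.

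The spread within groups was set against that of all 11854 genes tested, on the log2(FPKM + 1) scale. The SD within groups was 2.05 for Dbp, the 15th largest of all genes, and 1.31 for Nr1d1, the 48th largest. It was 1.07 for Arntl, larger than in 98.9% of genes, and 1.00 for Per1, larger than in 98.4%. For Nr1d2 (0.70) and Per2 (0.55) it was larger than in 93.5% and 86.9% of genes, and for Clock (0.38) larger than in 67.7%. The median gene had an SD of 0.30. Among genes whose mean lay within 0.5 log2 units of the member's own mean, the shares with a smaller SD were close to these, from 69.9% for Clock to 99.8% for Dbp.

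**Figure D2:**
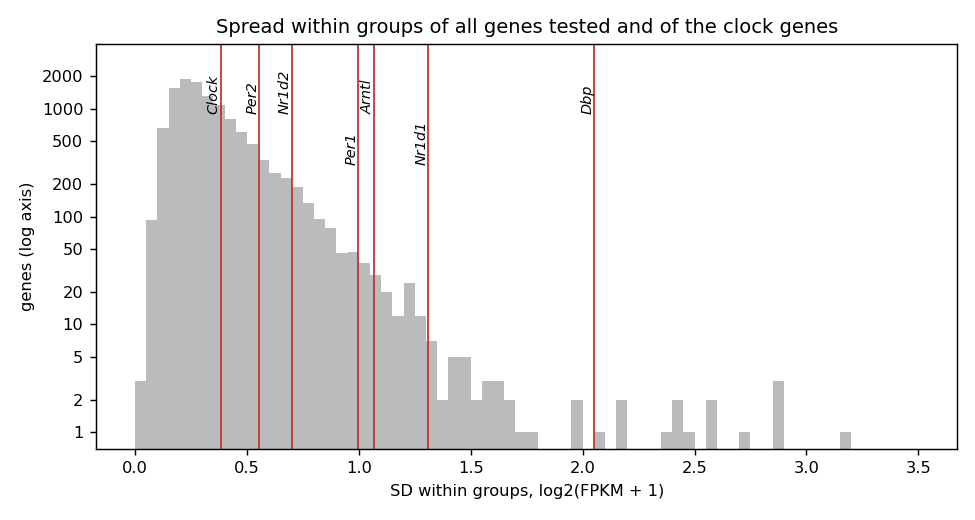
Histogram of the SD within groups on the log2(FPKM + 1) scale for the 11854 genes tested (number of genes, log axis), with a vertical line at each of the 7 clock genes. Dbp (2.05) and Nr1d1 (1.31) stand in the sparse right tail, and Clock (0.38) stands near the median gene (0.30).

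The share of each gene's variance that lay between groups was below that of the median gene for 5 members as deposited. It was 7.43% for Nr1d2, 7.96% for Dbp, 12.7% for Clock, 16.1% for Nr1d1 and 17.2% for Arntl, against 27.6% for the median gene. Only Per1 (31.6%) and Per2 (45.3%) were above that median, and after scaling Per1 fell to 25.1% against a median of 28.6%, with Per2 at 38.2%. These shares are descriptions and were not tested.

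The first comparison asked whether the carcinogen changed the clock genes, and set Control against NDEA. None of the 7 genes was called by limma at an adjusted p-value (Benjamini-Hochberg) under 0.05, where 0% of the 11854 genes were called, and 0 of 7 had an unadjusted p-value under 0.05, where 8.7% of genes did (after median-of-ratios scaling 0 of 7 and 8.13%). In no member did the Control and NDEA libraries separate, against 12.3% of all genes, but Per1 overlapped as deposited only by 6.1495 against 6.1489. Per1 had the largest log2 difference, -1.32 in Control relative to NDEA (SE 0.69, limma adjusted p = 0.524), and it was -0.84 without NDEA replicate 1, -0.67 without Control replicate 1 and -1.57 without Control replicate 3. Dbp differed by -1.20 with an SE of 1.39 and a 95% confidence interval from -4.25 to 1.85. With 1 library left out it ran from -2.62 (without Control replicate 3) to -0.46 (without Control replicate 1), and every one of the 6 libraries moved it by over 1.5 times. The log2 differences of Nr1d1 (-1.07, SE 0.89), Per2 (-0.70, SE 0.40), Nr1d2 (-0.37, SE 0.49), Clock (-0.12, SE 0.29) and Arntl (0.28, SE 0.74) were likewise within about 2 SE of 0. Per2 was -0.36 without NDEA replicate 1, and Nr1d1 ran from -1.80 without NDEA replicate 3 to -0.38 without Control replicate 2. The members' median was -0.70, beside -0.20 over all genes, and after median-of-ratios scaling it was -0.44 beside 0.04. The difference of Clock changed sign on that scaling, to 0.11, and those of Nr1d2 and Per2 became -0.09 and -0.44. Without Control replicate 2 those of Arntl (-0.23) and Nr1d2 (0.066) changed sign.

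The second comparison asked whether CFT-1 tea changed them in NDEA-treated rats. In NDEA+CFT-1 relative to NDEA, 0 of 7 members were called by limma at an adjusted p-value under 0.05, as were 0% of all genes, and 1 member had an unadjusted p-value under 0.05, as had 12.6% of genes (1 member and 15.1% after scaling). That member was Per2, with a log2 difference of -1.16 (SE 0.40, 95% confidence interval -2.02 to -0.29, limma adjusted p = 0.329). It was lower in 3 of 3 NDEA+CFT-1 libraries than in any NDEA library, but by 4.514 against 4.521 at the closest. After median-of-ratios scaling the Per2 libraries overlapped (3.94, 1.59 and 4.64 against 9.45, 7.99 and 4.44) and the difference was -0.94 (limma adjusted p = 0.302). Without NDEA replicate 1 it was -0.81 (limma adjusted p = 0.582) and without NDEA+CFT-1 replicate 2 it was -0.76 (limma adjusted p = 0.589), and in neither was the unadjusted p-value under 0.05. With library weights the Per2 difference was -0.36 (limma adjusted p = 0.456), again without an unadjusted p-value under 0.05.

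Per1 differed by -1.36 on the log2 scale in the same comparison (SE 0.69, limma adjusted p = 0.430), by -0.88 without NDEA replicate 1 and by -1.47 without NDEA+CFT-1 replicate 2. Its libraries did not overlap before or after scaling. Per1 and Per2 were the 2 members without overlap, against 16.8% of all genes, and after scaling Per1 was the only member, against 20% of genes. The log2 differences of the other members were small beside their errors: -0.42 (SE 0.89) for Nr1d1, -0.33 (SE 1.39) for Dbp, -0.25 (SE 0.74) for Arntl, -0.10 (SE 0.49) for Nr1d2 and -0.07 (SE 0.29) for Clock. The signs for Clock (0.16) and Nr1d2 (0.16) turned after scaling. The others then became -0.17 for Nr1d1, -0.06 for Dbp and -0.06 for Arntl. With 1 library left out, Arntl (up to 0.40), Dbp (up to 0.69) and Nr1d1 (up to 0.29) changed sign as well. The members' median was -0.33 beside -0.16 over all genes, and -0.06 beside 0.05 after scaling.

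The third comparison set NDEA+FYT against the same NDEA libraries. No member was called by limma at an adjusted p-value under 0.05 (0% of genes), and 0 of 7 had an unadjusted p-value under 0.05, against 1.48% of genes (0 of 7 and 1.58% after scaling). No member's libraries separated, against 5.95% of genes. After scaling Per2 alone separated, against 6.6% of genes, with 4.39, 4.13 and 4.16 in NDEA+FYT and 4.44 as the lowest NDEA value. Log2 differences were -1.12 (SE 0.89) for Nr1d1, -1.07 (SE 0.69) for Per1, -1.03 (SE 1.39) for Dbp, -0.66 (SE 0.40) for Per2 and -0.36 (SE 0.49) for Nr1d2. They were 0.82 (SE 0.74) for Arntl and 0.20 (SE 0.29) for Clock, and all adjusted p-values were 0.9996 in limma. Without NDEA+FYT replicate 3 the difference was -0.34 for Nr1d1, -1.87 for Per1 and -0.26 for Dbp. Without NDEA replicate 1 it was -0.59 for Per1 and -0.32 for Per2, and without NDEA replicate 3 it was 1.47 for Arntl, -2.43 for Dbp and -1.86 for Nr1d1. With 1 library left out, Arntl ran from 0.35 (without NDEA replicate 2) to 1.47, Nr1d2 from -0.71 to -0.16 and Clock from 0.067 to 0.40. The members' median was -0.66 beside -0.03 over all genes. The comparisons with NDEA share its 3 libraries, so their differences are not independent of one another.

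The last comparison set the 2 teas against each other. In NDEA+CFT-1 relative to NDEA+FYT, 0 of 7 members were called by limma at an adjusted p-value under 0.05 (0% of genes), and 0 of 7 had an unadjusted p-value under 0.05, against 5.42% of genes (0 of 7 and 6.11% after scaling). Arntl and Clock were lower in all 3 NDEA+CFT-1 libraries than in any NDEA+FYT library, an arrangement found in 21.2% of genes, higher and lower together. The log2 difference was -1.07 for Arntl (SE 0.74, limma adjusted p = 0.899) and -0.26 for Clock (SE 0.29, limma adjusted p = 0.926). After scaling neither gene separated, against 20.9% of genes, and the differences were -0.88 and -0.06. Those of the other members were 0.71 (SE 0.89) for Nr1d1, 0.70 (SE 1.39) for Dbp, 0.26 (SE 0.49) for Nr1d2, -0.29 (SE 0.69) for Per1 and -0.49 (SE 0.40) for Per2. Without NDEA+CFT-1 replicate 2 they were 1.42 for Nr1d1, 1.72 for Dbp, 0.67 for Nr1d2 and -0.10 for Per2. Leaving out NDEA+CFT-1 replicate 1 gave 0.11 for Nr1d2, 0.34 for Nr1d1 and 0.17 for Dbp, and leaving out replicate 3 gave 0.014 for Nr1d2. Without NDEA+FYT replicate 3 those of Nr1d1, Dbp and Per1 changed sign (-0.082, -0.068 and 0.51).

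A moderated F-test in limma of any difference among the 4 groups also called 0 of 7 members at an adjusted p-value under 0.05 (0% of genes), and 0 of 7 had an unadjusted p-value under 0.05, against 6.22% of genes (0 of 7 and 6.84% after scaling). The smallest limma adjusted p was that of Per2 (0.805), followed by Per1 (0.824). For the remaining 5 members it lay between 0.884 and 0.951. Control was not compared with either tea group on its own. The confidence intervals remain wide, and a Dbp difference of -4.25 on the log2 scale in Control relative to NDEA is their edge.

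**Figure D3:**
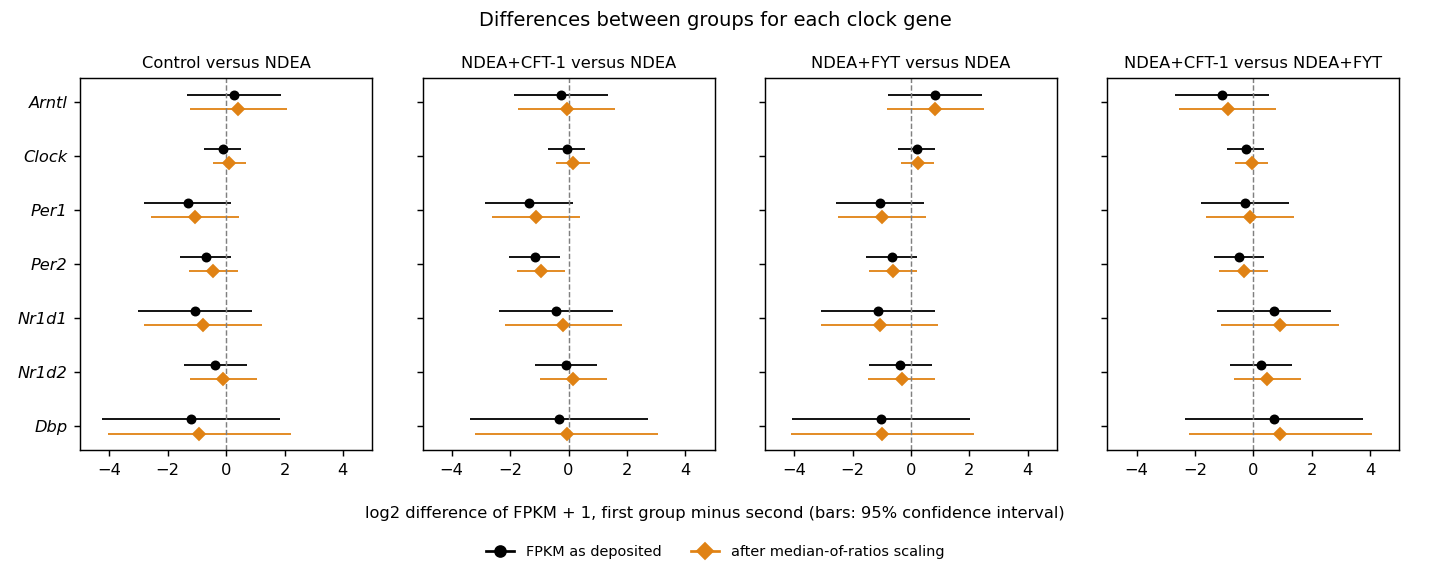
Log2 difference of FPKM + 1 between groups (first group minus second) for each clock gene, with 95% confidence intervals from limma, as deposited (circles) and after median-of-ratios scaling (diamonds). The interval of Per2 in NDEA+CFT-1 versus NDEA, -2.02 to -0.29, lies below 0, and that of Dbp in Control versus NDEA runs from -4.25 to 1.85.

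The livers of each group differed in the balance of Dbp and Arntl. Dbp divided by Arntl, both in FPKM, was 1.28 and 1.36 in Control replicates 1 and 2 and 1123 in replicate 3. In NDEA it was 93.8, 192 and 1.11. In NDEA+CFT-1 it was 58.0, 3.69 and 78.1, and in NDEA+FYT it was 9.70, 13.7 and 1.575. Each group thus contained a liver with a ratio under 4 and a liver with a ratio over 9. The 7 libraries with the most Dbp were also the 7 with the most Nr1d1, 13.6 to 42.1 against 2.19 to 9.57 in the others, and the 7 with the most Nr1d2, 15.0 to 30.0 against 6.96 to 11.5.

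**Figure D4:**
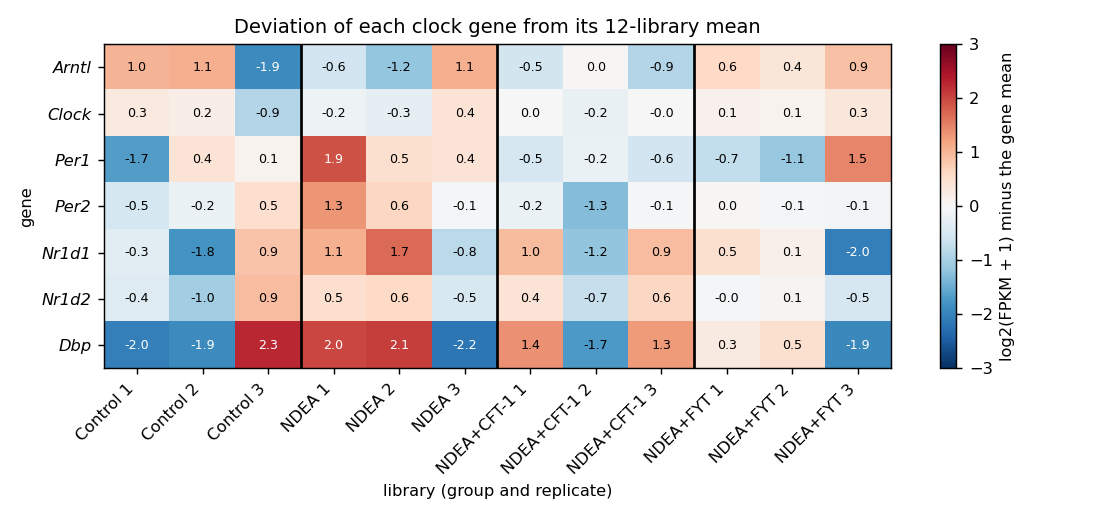
Deviation of log2(FPKM + 1) of each clock gene (rows) from its mean over the 12 libraries (columns, ordered by group and replicate), coloured from blue (below the mean) to red (above). Control replicate 3 is blue for Arntl and Clock and red for Dbp, Nr1d1 and Nr1d2, and NDEA replicate 3 shows the opposite colours.

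Correlations over the 12 libraries were computed for all 21 pairs of members on log2(FPKM + 1), with permutation p-values adjusted over the 21 pairs. For the 6 pairs with Dbp no pooled value is given as deposited, because its libraries then fell into 2 sets. Of the other 15 pairs, 6 had an adjusted permutation p under 0.05, and 3 of these also passed on deviations from the group means, permuted exactly within groups. After median-of-ratios scaling 8 of the 15 pairs passed, with Arntl and Per2 (r = -0.686, permutation adjusted p = 0.0246), Clock and Per2 (r = -0.735, permutation adjusted p = 0.0162) and Clock and Nr1d1 (r = -0.665, permutation adjusted p = 0.031) gained and Per2 and Nr1d2 lost. On that scaling the Dbp gap was 32.3%, just under the limit of 33.3%, so the Dbp pairs are given. The same 5 libraries still lay below the gap (up to 16.5) and the same 7 above it (from 50.7). The pooled r of Dbp thus still span these 2 sets, and a pass does not show a relation within either set. Dbp then passed with Arntl (r = -0.95) and Nr1d2 (r = 0.909), both with permutation adjusted p = 0.000105. It passed with Nr1d1 (r = 0.905, permutation adjusted p = 0.00027) and Clock (r = -0.846, permutation adjusted p = 0.000245). It passed with Per2 (r = 0.709, permutation adjusted p = 0.0172) but not Per1 (r = 0.0707, permutation adjusted p = 0.865). The pairs of Clock and of Per2 are then over libraries that the rule on gaps would set apart. All values share the 12 libraries and their depths.

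Arntl and Clock were positively correlated over the 12 libraries, with r = 0.89 (permutation p = 0.00013, adjusted p = 0.000682) and a Spearman rho of 0.923 (permutation p = 1e-05, the smallest that 100000 permutations can give, adjusted p = 0.00021). Without the 2 libraries farthest from the median of Arntl, r was 0.792. Without Control replicate 3 it was 0.846 and without NDEA replicate 1 it was 0.888. Within groups it was 0.918, but the exact permutation p was 0.0648 (adjusted p = 0.124).

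Arntl ran opposite to the 2 REV-ERB genes. With Nr1d2, r was -0.881 (permutation p = 0.00034, adjusted p = 0.00143) and rho was -0.846 (permutation p = 0.00101, adjusted p = 0.00424). Within groups r was -0.906, with an exact permutation p of 0.000772, the smallest that the 1296 arrangements can give (adjusted p = 0.0162). With Nr1d1, r was -0.758 (permutation p = 0.00494, adjusted p = 0.0145), rho was -0.762 (permutation p = 0.00549, adjusted p = 0.0144), and r within groups was -0.759 (exact permutation adjusted p = 0.0243). Without the 2 farthest libraries these r were -0.819 and -0.738. Without Control replicate 3, where Arntl had the fewest fragments, they were -0.848 and -0.802, and without NDEA replicate 1 they were -0.878 and -0.749.

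Nr1d1 and Nr1d2 rose and fell together with r = 0.909 (permutation p = 5e-05, adjusted p = 0.000525) and rho = 0.86 (permutation p = 0.0006, adjusted p = 0.00315). Within groups r was 0.908 (exact permutation adjusted p = 0.0243), and without the 2 farthest libraries it was 0.913. Without Control replicate 3 it was 0.935 and without NDEA replicate 1 it was 0.902. Clock and Nr1d2 had r = -0.662 (permutation adjusted p = 0.0288) and rho = -0.65 (permutation adjusted p = 0.0582), and r was -0.497 without the 2 farthest libraries. Per2 and Nr1d2 had r = 0.638 (permutation adjusted p = 0.0408) and rho = 0.636 (permutation adjusted p = 0.0586). Neither of these last pairs passed within groups (exact permutation adjusted p = 0.141 and 0.0666) or without Control replicate 3 (permutation adjusted p = 0.134 and 0.0827). After median-of-ratios scaling Per2 and Nr1d2 had r = 0.603 (permutation adjusted p = 0.0573), and Clock and Nr1d2 had r = -0.706 (permutation adjusted p = 0.0207).

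Per1 followed neither side. Its r was -0.131 with Arntl, -0.106 with Clock, -0.137 with Nr1d1 and 0.02 with Nr1d2, with permutation p-values from 0.67 to 0.954. With Per2 it was 0.553 (permutation p = 0.0605, adjusted p = 0.0978), and 0.163 without the 2 libraries farthest from the median of Per1. The 2 livers with the most Per1, NDEA replicate 1 (19.0) and NDEA+FYT replicate 3 (13.8), had Dbp of 191 and 11.5.

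Within the 7 libraries above the Dbp gap, Dbp was compared with the other members by exact permutation tests, adjusted over 6 pairs. Its r was -0.908 with Arntl (exact p = 0.00456, adjusted p = 0.0137) and 0.91 with Nr1d2 (exact p = 0.00456, adjusted p = 0.0137). It was -0.777 with Clock (exact p = 0.0181, adjusted p = 0.0361). For Per1 (0.734), Nr1d1 (0.765) and Per2 (0.665) the exact adjusted p-values were 0.0598, 0.0598 and 0.097. In these 7 libraries Dbp was ordered by group, from Control (229) through NDEA and NDEA+CFT-1 to NDEA+FYT (65.8 and 56.6), so a relation between livers and a difference between groups cannot be told apart here. No correlation was computed over the 5 libraries below the gap.

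**Figure D5:**
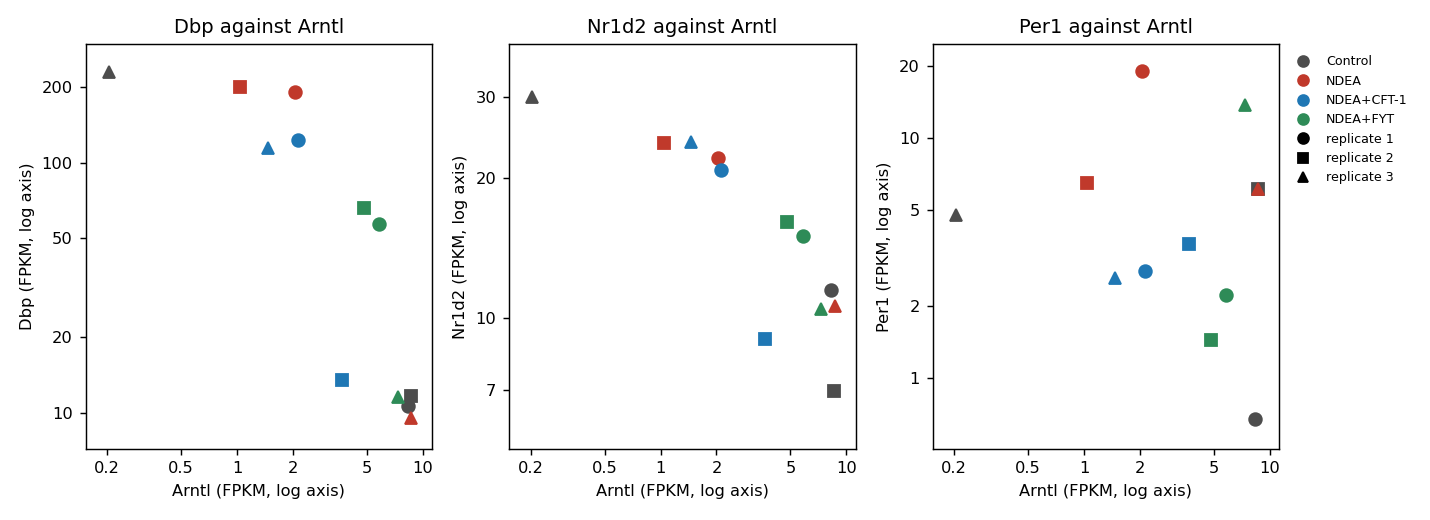
FPKM of Dbp, Nr1d2 and Per1 (vertical, log axis) against FPKM of Arntl (horizontal, log axis) in the 12 libraries, coloured by group and shaped by replicate. Dbp and Nr1d2 fall as Arntl rises, from 229 and 30.0 at an Arntl of 0.204 to 9.55 and 10.6 at 8.63, and Per1 shows no such order.

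The course of Arntl was also compared with that of all genes whose mean FPKM reached 5, as a description over the 12 libraries after median-of-ratios scaling. Of these 7049 genes, 35 (0.497%) had r of at least 0.8 with Arntl and 26 (0.369%) had r of at most -0.8. Clock ranked 10th from the top with r = 0.87. The r of Clock and of Per2 here are over libraries that the rule on gaps would set apart after scaling, and that of Dbp still spans its low and high libraries. Dbp (r = -0.95), Nr1d2 (r = -0.93) and Nr1d1 (r = -0.83) ranked 7048th, 7047th and 7033rd, close to the bottom. Per2 (r = -0.69) ranked 6938th and Per1 (r = -0.23) 5023rd. The IDs most like Arntl were ENSRNOG00000051056 (r = 0.94) and ENSRNOG00000016791 (r = 0.92). The most opposite ID that is no member was ENSRNOG00000013982 (r = -0.96), followed by ENSRNOG00000031993 (r = -0.91). The files do not pair these IDs with gene symbols.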

How the data were processed

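RNA was sequenced from 12 rat liver libraries, 3 in each of 4 groups, with groups and replicate numbers taken from the labels. The authors ran Trimmomatic on paired-end reads, aligned with HISAT2, discarded PCR duplicates, counted unique reads and deposited FPKM values per gene. The submitters' processing notes name HTSeq 0.6.1 and the Rnor_6.0 build. PCR fragments carry no molecular identifiers, so intervals cover counting error only.

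Here log2(FPKM + 1) of the 11854 genes that reached a mean FPKM of 1 was fitted in limma 3.58.1 (R 4.3.3; all 4 groups in 1 fit, eBayes with a trend). Benjamini-Hochberg adjustment ran over these genes, with calls made under 0.05. As FPKM are not counts, no count model was fitted. The whole numbers of fragments behind each value were recovered as the smallest that give back the 12 values of a gene (tolerance 0.001), given the relative depth of each library. Correlations used 100000 permutations with numpy 2.4.6 and plots used matplotlib 3.10.9. On simulated data for Control versus NDEA (11854 genes, 200 changed), the fit recovered 43.5% of true log2 differences of 1 and 82.5% of those of 2, with 7 false calls each. The changed genes were drawn from all genes tested, whose median SD within groups was 0.30, with noise independent between genes. All members spread more, from 0.38 for Clock to 2.05 for Dbp, so these shares do not give the recovery for the members.

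The members and lists were chosen with earlier results of these data known. All 7 members are named, with the IDs most like and most opposite to Arntl. The alternatives tried were median-of-ratios scaling, quantile normalization, a pseudocount of 0.1, no filter, a mean FPKM of at least 5, the replicate number as a block, no trend, library weights, a fit of only the groups compared, and each library left out. Fixed lists of other clock genes, clock-controlled genes, feeding and glucocorticoid genes and cell type markers were not analysed here, since the tables used do not pair IDs with symbols, and the tissue was not checked against markers for the same reason. Likeness of all genes to Dbp was not computed. Its libraries fall into separate sets as deposited, whereas likeness to Arntl used scaled values, on which the rule would set apart Clock and Per2 instead.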

Additional observations from a re-analysis of the deposited data

How the results depend on the processing

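The count of clock genes called by limma was 0 in all 5 comparisons, as reported and under each alternative that could be fitted (109 of 109 counts). The lowest adjusted p over all differences and alternatives was 0.227, for Per2 in NDEA+CFT-1 versus NDEA, whose log2 difference ranged from -1.50 to -0.36. Unadjusted limma p-values did fall under 0.05 in some alternatives. With only the groups compared they were 0.0048 for Arntl in NDEA+CFT-1 versus NDEA+FYT and 0.0098 for Per1 in NDEA+CFT-1 versus NDEA. Without Control replicate 3 that of Arntl in Control versus NDEA was 0.037. Without NDEA+FYT replicate 3 that of Per1 there was 0.0296. With 1 library left out, the unadjusted F-test p-value fell to 0.047 for Arntl, 0.035 for Per1 and 0.025 for Per2. Of 28 log2 differences, 14 kept their direction under every alternative, among them those of Per1 and Per2 against NDEA, and 14 turned. Arntl, whose mean FPKM is under 5, has no value under that filter.

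Median-of-ratios scaling turned Clock in Control versus NDEA (0.11) and Clock and Nr1d2 in NDEA+CFT-1 versus NDEA (both 0.16). Quantile normalization turned the same 3 (0.17, 0.21 and 0.050) and Arntl in NDEA+CFT-1 versus NDEA (0.038). Library weights turned Dbp (2.28), Nr1d1 (1.03) and Nr1d2 (0.64) in NDEA+CFT-1 versus NDEA, and Dbp (0.89), Nr1d2 (0.11) and Clock (-0.066) in NDEA+FYT versus NDEA. Among differences that kept their sign, the weights gave -1.17 for Arntl in NDEA+CFT-1 versus NDEA and -0.42 for Dbp in Control versus NDEA. In NDEA+FYT versus NDEA the weights gave 0.025 for Arntl, -0.11 for Nr1d1 and -0.18 for Per2. The cause was not tested. With 1 library left out, differences in Control versus NDEA ran from -0.23 to 1.27 for Arntl, -0.33 to 0.26 for Clock and -0.91 to 0.066 for Nr1d2. In NDEA+CFT-1 versus NDEA they ran from -0.72 to 0.40 for Arntl, -0.19 to 0.14 for Clock, -1.73 to 0.69 for Dbp, -1.15 to 0.29 for Nr1d1 and -0.44 to 0.31 for Nr1d2. In NDEA+CFT-1 versus NDEA+FYT they ran from -0.068 to 1.72 for Dbp, -0.082 to 1.42 for Nr1d1 and -0.79 to 0.51 for Per1, which turned without NDEA+FYT replicate 3. A group left with 2 libraries shares the spread of the others.

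The correlation of Per1 with Nr1d2 turned after median-of-ratios scaling (-0.043), on deviations from the group means (-0.10) and without NDEA replicate 1 (-0.17), with 0.0036 without Control replicate 3. The exact permutation p of the deviations from the group means and the correlations without Control replicate 3 were added after seeing the data.

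With the replicate number as a block, the count of clock genes called was 0 in each comparison. Over the 18 pairs of libraries with the same number, the correlation of deviations from the group means ran from -0.467 to 0.282, with 7 over 0.1, and 9 of 12 libraries correlated best with their own number, a hint from the data and not the design. Neither the labels nor the methods say whether the numbers pair the samples.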
